A study of Mus musculus with 2 samples.

Results

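The 10 genes described here encode sclerostin and other secreted inhibitors of Wnt signalling: Sost, Dkk1, Dkk2, Dkk3, Sfrp1, Sfrp2, Sfrp4, Frzb, Wif1 and Notum. They were chosen by name, with earlier results of these data known. Every probe set whose annotation named only 1 of them was taken. This gave 18 of the 34945 probe sets that named 1 gene and 10 of 18193 genes. Their signals were read on 2 Affymetrix mouse expression arrays of primary osteoblasts, the bone-forming cells, from the skull caps (calvariae) of C57BL/6 mice 5 days old. The phosphate group (1 array) spent 6 h in serum-free medium with 4 mM phosphate, the control group (1 array) spent the same time in that medium with its own 1 mM. Both groups were at pH 7.2 and followed a night without serum. The extra phosphate was added as the sodium salt, so sodium rose with it. Cells released from calvariae are a mixed primary culture and not a purified cell type, and the number of mice behind each culture is not given in the sources used here. The study set these 2 cultures side by side to read early expression changes under added phosphate.

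Wnt proteins hold osteoblasts and their precursors in a bone-forming state by binding a Frizzled receptor together with the co-receptor Lrp5 or Lrp6, which stabilises beta-catenin. Secreted inhibitors act outside the cell in distinct ways. Sclerostin and the Dickkopf protein Dkk1 bind the Lrp co-receptors, the SFRP proteins, Frzb and Wif1 bind Wnt proteins themselves, and Notum is an enzyme that removes the lipid a Wnt protein needs to bind its receptor. Sclerostin is known as the product of osteocytes, the cells embedded in bone, and loss of it in humans and mice gives dense bone.

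With 1 array per condition there were no replicates, so no test between conditions was possible, no p-value is given, and every difference describes these 2 arrays. Signals are in the arbitrary linear units of the MAS5 algorithm. Values under 21.5, the median of both arrays pooled, were raised to that floor, a gene counted as measured if at least 1 array was above it, and a ratio with 1 array at the floor is a bound. Log2 ratios are 4 mM over 1 mM phosphate. The only available error is technical: probe sets that target one gene disagreed in log2 ratio with a standard deviation (SD) of 0.42 for signals from the floor to 100, 0.26 for signals from 100 to 400, and 0.16 for brighter ones, going by the dimmer array. It covers no difference between cultures. On the phosphate array 51.0% and on the control array 49.0% of mouse probe sets were above the floor, and the ratio of 3′ to 5′ signal for actin, a sign of RNA integrity, was 1.43 in phosphate and 1.36 in the control.

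Of the 10 inhibitor genes, Sost and Dkk1 were at least 2-fold lower in phosphate and Sfrp4 was at least 2-fold higher. Among all 12241 measured genes, 2.92% were at least 2-fold lower and 2.28% at least 2-fold higher. All 10 genes were measured, each above the floor on both arrays with its brightest probe set, which gave the value of the gene. In 9 of the 10 the log2 ratio was below 0, against 55.9% of all measured genes. Their median log2 ratio was −0.41, and that of all measured genes was −0.06. The 10 genes were chosen with earlier results of these data known, so their counts and median only describe them. Counted by probe set, 5 of 18 were at least 2-fold lower and 1 was at least 2-fold higher, against 2.5% and 2.77% of the 24159 measured probe sets. Probe sets of a gene are not independent: for Sost, Frzb and Dkk3 both probe sets were designed on the same transcript record. The differences of Wif1 and Notum were under 1 technical SD, and those of Dkk2, Dkk3 and Sfrp1 were between 1 and 3 SD. Those of Sost, Dkk1, Frzb, Sfrp2 and Sfrp4 were 3 SD or more. The SD between a gene's own probe sets was 1.32 for Sost and 0.55 for Dkk1, and their differences were under 3 such SD. For Frzb it was 0.09, and the difference was over 3 such SD. Sfrp2 and Sfrp4 had 1 probe set each.

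**Figure D1:**
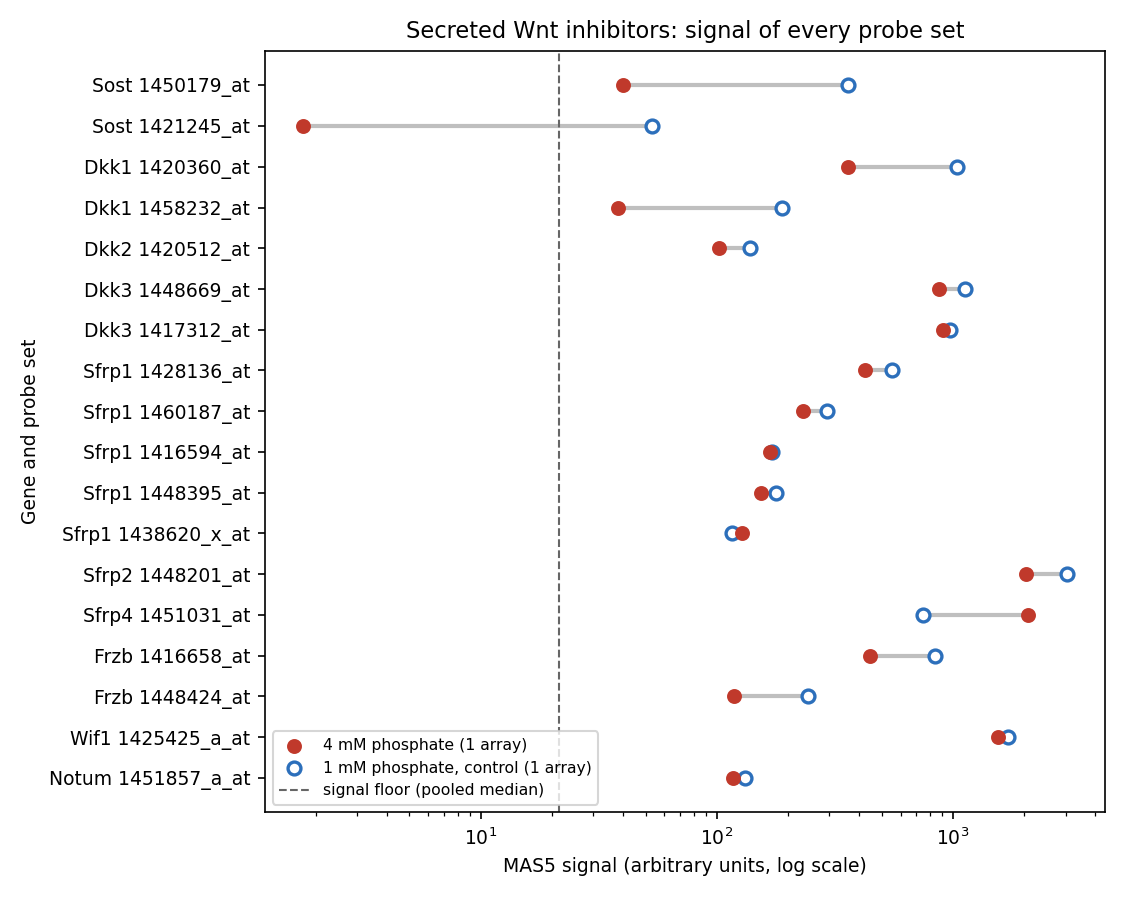
MAS5 signal (horizontal, log scale, arbitrary units) of all 18 probe sets of the 10 inhibitor genes, with 1 filled point for the 4 mM phosphate array and 1 open point for the 1 mM control array. The dashed line is the floor of 21.5; both probe sets of Sost, Dkk1 and Frzb lie further left in phosphate, and the probe set of Sfrp4 lies further right.

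Sost, the sclerostin gene, had a signal of 39.9 in phosphate and 359 in the control on its brighter probe set, 1450179_at. The phosphate signal was 11.1% of the control signal (log2 ratio −3.17), and no other measured gene had a lower ratio. The dimmer probe set, 1421245_at, read 1.77 in phosphate, below the floor, and 53.1 in the control, so Sost was at least 2.47-fold lower on it. Both probe sets thus had the phosphate array as the lower one, and the phosphate signal of the brighter one was itself close to the floor. The size of the Sost ratio rests on that dim signal: it was −1.85 with the floor at 100 and −2.24 as the median of both probe sets, 1 of which is a bound. Its rank rests on that signal too. With the floor at 100, Fbxo2 was lower than Sost, at 114 in phosphate and 533 in the control (log2 ratio −2.23).

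Dkk1, which encodes a Dickkopf protein that binds Lrp5 and Lrp6 and is known as a brake on bone formation, was lower on both of its probe sets. Probe set 1420360_at read 359 in phosphate and 1039 in the control, a 2.90-fold lower signal (log2 ratio −1.53). Probe set 1458232_at, designed on another transcript record, read 38.1 in phosphate and 189 in the control, a 4.96-fold lower signal (log2 ratio −2.31). The probe sets differed from each other by more than the technical SD but had the same array as the lower one. Of all measured genes, 41 had a lower ratio than the brighter probe set of Dkk1.

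The other Dickkopf genes differed less. Dkk2, whose protein also binds Lrp co-receptors and can inhibit or activate the pathway depending on the cell, read 102 in phosphate and 138 in the control (log2 ratio −0.44). Dkk3, a divergent member of the family, read 874 in phosphate and 1125 in the control (log2 ratio −0.36), and on its other probe set 905 in phosphate and 977 in the control (−0.11). The larger of the Dkk3 differences was 1.29-fold.

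Upstream sequence of the 3 genes with the lowest ratios is shown because these members were lower together, so that their promoters can be read side by side. RefSeq promoter windows (GRCm38.p6) were matched by symbol for 6 of the 10 genes, Sost, Dkk1, Dkk2, Sfrp2, Frzb and Wif1. Each run below is the 250 bases that end just before the annotated start of the gene, 5′ to 3′ on the strand of the gene, and capitals mark matches to the motifs searched. They lie at chr11:101967016-101967265 (minus strand, Sost), chr19:30549497-30549746 (minus strand, Dkk1) and chr2:80447397-80447646 (minus strand, Frzb).
Sost: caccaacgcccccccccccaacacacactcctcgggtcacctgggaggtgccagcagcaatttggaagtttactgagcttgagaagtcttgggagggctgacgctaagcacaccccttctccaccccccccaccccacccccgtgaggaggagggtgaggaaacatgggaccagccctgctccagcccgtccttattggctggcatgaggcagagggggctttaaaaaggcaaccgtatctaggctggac
Dkk1: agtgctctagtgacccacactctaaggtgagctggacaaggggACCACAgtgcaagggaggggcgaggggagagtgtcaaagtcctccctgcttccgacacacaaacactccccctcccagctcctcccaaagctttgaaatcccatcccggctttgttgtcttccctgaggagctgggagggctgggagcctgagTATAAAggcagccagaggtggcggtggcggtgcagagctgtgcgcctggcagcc
Frzb: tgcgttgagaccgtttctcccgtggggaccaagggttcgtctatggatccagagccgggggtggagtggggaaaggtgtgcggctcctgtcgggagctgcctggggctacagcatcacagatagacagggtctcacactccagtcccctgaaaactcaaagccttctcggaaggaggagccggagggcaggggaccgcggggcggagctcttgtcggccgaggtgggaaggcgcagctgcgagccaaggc

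The motifs searched on both strands were the core site of the Wnt-responsive TCF/LEF factors (CTTTGAT), the AP-1 site (TGANTCA), the cyclic AMP response element (TGACGTCA), the core site of RUNX factors (TGTGGT), the TATA box (TATAAA), and the sites of MEF2 and of SRF. None of the 7 was found in the windows of Sost and Frzb. The TCF/LEF core was searched only as CTTTGAT, so CTTTGAA, a variant of it in the Dkk1 window, was not marked. The window of Dkk1 held 1 RUNX core, on the opposite strand at positions −207 to −202 from the start, and 1 TATA box at −54 to −49. Of the windows not shown, Dkk2 held 1 TATA box at −32 to −27. That of Wif1 held 1 on the opposite strand at −232 to −227, and that of Sfrp2 held no match. Of all 32851 RefSeq windows of this length, 14.05% held the RUNX core, 12.4% the TATA box, 6.75% the AP-1 site, 3.21% the TCF/LEF core, 2.92% the MEF2 site, 1.55% the cyclic AMP element and 1.47% the SRF site. The windows of Sost, Dkk1 and Frzb had 61.2%, 60.8% and 64.4% G and C bases, and the median over all windows was 52.4%. Those of Dkk2, Sfrp2 and Wif1 had 55.6%, 63.6% and 62.8%, so a share above that median was not particular to the lowest genes. Such matches describe letters in a window and show no binding.

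Among the genes whose proteins bind Wnt, Sfrp4 stood opposite to the others. Sfrp4, a secreted Frizzled-related protein whose loss thins cortical bone, read 2076 in phosphate and 744 in the control on its 1 probe set, a 2.79-fold higher signal (log2 ratio 1.48). Of all measured genes, 126 had a higher ratio. Frzb, also called Sfrp3 and best known from cartilage, read 444 in phosphate and 841 in the control on its brighter probe set (log2 ratio −0.92, 1.89-fold lower). Its other probe set read 118 in phosphate and 244 in the control (log2 ratio −1.05, 2.07-fold lower), so Frzb lay just on either side of 2-fold.

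Sfrp2, a family member made by mesenchymal cells, read 2037 in phosphate and 3028 in the control on its 1 probe set (log2 ratio −0.57, 1.49-fold lower). Sfrp1, a family member that limits bone mass in mice, had 5 probe sets with signals of 423, 232, 168, 154 and 128 in phosphate, against 554, 294, 172, 178 and 116 in the control, in the same order. Of these 5, 4 were lower in phosphate, with log2 ratios of −0.39, −0.34, −0.03 and −0.21, and 1 was higher, at 0.14. The higher one, 1438620_x_at, is of a kind whose name marks probes that can also match other transcripts. The SD between the 5 ratios was 0.22, so the ratio of −0.39 on the brightest probe set was less than 2 such SD from 0.

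Wif1, which binds Wnt proteins through its own WIF domain, and Notum, the Wnt-inactivating enzyme, had the smallest differences. Wif1 read 1553 in phosphate and 1708 in the control (log2 ratio −0.14). Notum read 118 in phosphate and 131 in the control (log2 ratio −0.16). Ordered by log2 ratio, the genes ran Sost, Dkk1, Frzb, Sfrp2, Dkk2, Sfrp1, Dkk3, Notum, Wif1 and Sfrp4. From Sfrp2 to Dkk3 in that order, each gene differed from the next by less than the technical SD, and so did Notum from Wif1.

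**Figure D2:**
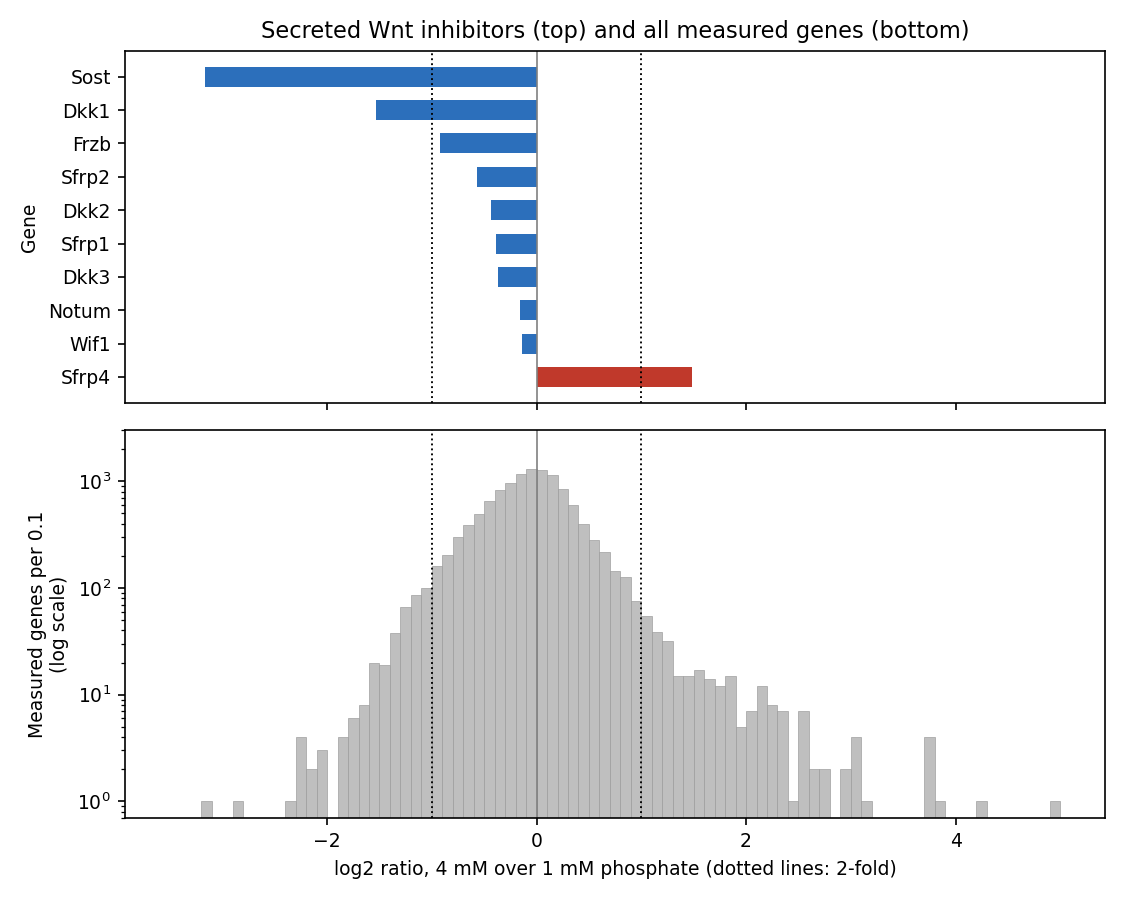
Log2 ratio of 4 mM over 1 mM phosphate (horizontal) of each inhibitor gene on its brightest probe set (top, bars from 0) and the number of all 12241 measured genes per 0.1 of log2 ratio (bottom, log scale), 1 array per condition. Dotted lines mark 2-fold; Sost at −3.17 is the lowest of all measured genes, Dkk1 at −1.53 and Sfrp4 at 1.48 lie outside 2-fold, and the other 7 inhibitor genes lie inside.

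The array scaling bears on these values. MAS5 set the average signal equal on both arrays, yet the poly-A spikes, bacterial RNAs put into each sample ahead of labelling, read higher in phosphate on all 24 of their probe sets, with log2 ratios of 0.20 to 0.65 and a median of 0.46. If the spikes are instead taken as equal, the log2 ratio of every gene moved down by that amount. Frzb at −1.39 and Sfrp2 at −1.04 then joined Sost (−3.63) and Dkk1 (−1.997) below 2-fold, with 14.1% of all measured genes, and Sfrp4 stayed above it at 1.02. The hybridisation spikes, added after labelling, were less far apart, with a median log2 ratio of 0.23 over 18 probe sets. Taking those as equal instead, a choice made after seeing the data, put Frzb at −1.15 past 2-fold and left Sfrp2 inside it at −0.80, with 6.58% of all measured genes at least 2-fold lower. Either shift is equal for all genes, so it cannot change the order of the 10 genes.

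Genes that carry the Wnt signal were compared as lists. Over 6 lists of other Wnt genes and secreted antagonists, 69 genes were measured, with a median log2 ratio of −0.02. Of the 69, 3 were at least 2-fold lower and 2 at least 2-fold higher. Among all measured genes these shares were 2.92% and 2.28%, and the median was −0.06. Of 6 measured genes for other secreted antagonists, only 1 was past 2-fold, in the higher direction. That gene, Grem1, a BMP antagonist, read 239 in phosphate and 89.3 in the control (log2 ratio 1.42). Dkk4, Dkkl1, Cer1, Sostdc1 and Nog were at the floor on both arrays, and Sfrp5 was barely above it, at 24.2 in phosphate and 21.6 in the control.

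Of 19 Wnt ligand genes, 8 were measured and 1 was at least 2-fold lower, and the median was −0.31. Wnt9a read 59.4 in phosphate and 125 in the control (log2 ratio −1.07), and Wnt7b, the highest, 83.1 in phosphate and 50.2 in the control (0.73). Of 5 measured genes for R-spondins, secreted agonists of the pathway, and for Wnt secretion, 1 was at least 2-fold lower. Rspo2 read 58.2 in phosphate and 176 in the control (log2 ratio −1.59), with −0.02 on its other probe set, and Rspo3 read 302 in phosphate and 553 in the control (−0.87). Some genes of agonists as well as antagonists thus had ratios below 0, as did 55.9% of all measured genes. Rspo2 passed 2-fold on only 1 of its probe sets.

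Of 21 measured receptor and co-receptor genes, 1 was at least 2-fold lower and none higher, with a median of −0.08. Lgr5, a receptor for R-spondins, read 46.9 in phosphate and 157 in the control (log2 ratio −1.74). Fzd2, the second lowest, had a log2 ratio of −0.88, and the highest were Fzd3 and Ryk, both at 0.62. Fzd3 ran from −0.18 to 1.22 on its other 3 measured probe sets, and Ryk from 0.19 to 0.21 on its other 2. The receptors that sclerostin and Dkk1 bind differed less than 2-fold. Lrp6 had a log2 ratio of −0.39, with 0.02 on its other measured probe set. Lrp4, which anchors sclerostin, had one of 0.02, and Lrp5, close to the floor on both arrays, one of 0.28. These 3 were picked for their role, after their values were seen. None of 15 measured genes of the intracellular pathway differed 2-fold, and their ratios ran from −0.39 for Tcf7l1 to 0.40 for Tcf7l2. On other measured probe sets Tcf7l1 had 0.33, the opposite direction, and Tcf7l2 had 0.51 and 0.59.

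Of 14 measured feedback and target genes of Wnt signalling, 1 was at least 2-fold higher and none lower, with a median of −0.05. The higher one was Tnfrsf11b, the osteoprotegerin gene, at 1035 in phosphate and 274 in the control (log2 ratio 1.92, and 1.90 on its other probe set). The lowest were Tnfrsf19 and the cyclin D1 gene Ccnd1, both at −0.85. Axin2, a feedback inhibitor widely used to read the pathway, was added after its value was seen. It read 110 in phosphate and 114 in the control (log2 ratio −0.05), a difference under the technical SD.

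**Figure D3:**
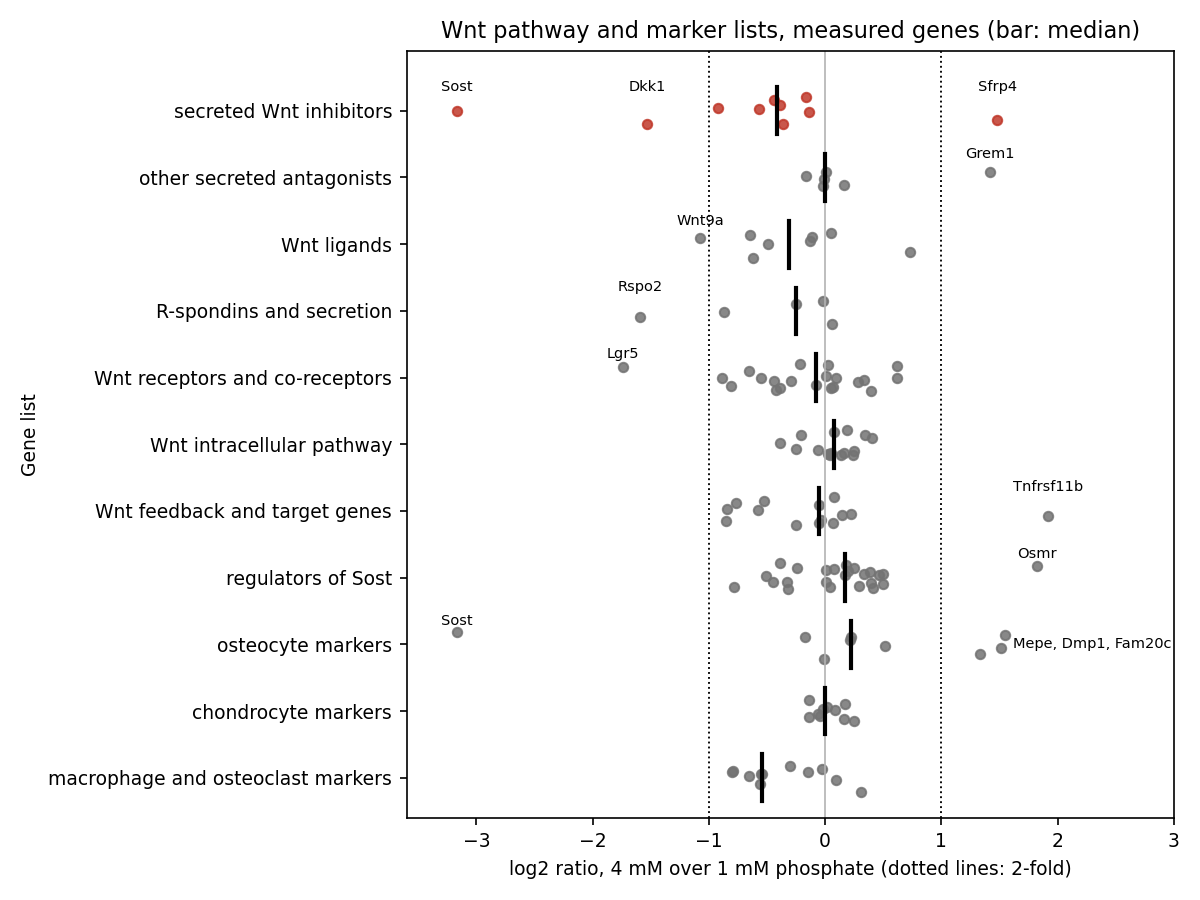
Log2 ratio of 4 mM over 1 mM phosphate (horizontal) of each measured gene (point) in 8 Wnt-related and 3 marker lists, with the median of each list as a bar and genes past 2-fold named, 1 array per condition. The inhibitor genes span −3.17 to 1.48, the intracellular pathway −0.39 to 0.40 and the chondrocyte markers −0.14 to 0.25.

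Sost is known to be lowered by parathyroid hormone, through the salt-inducible kinases, class IIa histone deacetylases and MEF2 factors, and by oncostatin M and prostaglandin E2. Of 24 measured genes from a list of such regulators, just 1 was past 2-fold on its brightest probe set, being higher, and the median was 0.17. Osmr, the oncostatin M receptor gene, read 1401 in phosphate and 395 in the control (log2 ratio 1.83, and 0.99 on its other probe set). Ptger2, a prostaglandin E2 receptor gene, was below the floor in the control and read 30.3 in phosphate, a bound of 0.50. Hdac9 was lowest, at 69.8 in phosphate and 120 in the control (−0.78). Other probe sets of some regulators disagreed with the brightest. Mef2c had a log2 ratio of 0.01 on its brightest probe set and −0.80 to −0.31 on its other 4, and Mef2d had 0.01 on its brightest and 0.08 to 1.99 on its others. Sik3, at 0.25, and Il6st, at 0.46, reached 1.13 and 1.15 on other probe sets. These 4 genes were named after their values were seen.

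Markers of the cells that could supply these transcripts were read alongside. In a bulk sample, fewer cells of a type and less RNA per cell cannot be told apart. Of 10 osteoblast markers, 6 had a probe set that named only them, and all 6 were measured with log2 ratios between −0.39 and 0.23, among them Ibsp at 14449 in phosphate and 13398 in the control and Col1a1 at 11889 in phosphate and 10139 in the control. Of 9 measured osteocyte markers, Sost was the only one at least 2-fold lower, and 3 were at least 2-fold higher. Dmp1, a mineral-binding matrix protein gene of osteocytes, read 15708 in phosphate and 5505 in the control (log2 ratio 1.51). Mepe had a log2 ratio of 1.34 and Fam20c one of 1.55, while Fgf23 was at the floor on both arrays. The other measured osteocyte markers were within 2-fold on their brightest probe sets: Phex at 0.21, Irx5 at 0.22, Ptprz1 at −0.01, Pdpn at 0.51 and Capg at −0.17. The other probe set of Capg gave −1.44.

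Frzb is abundant in cartilage, and all 10 chondrocyte markers were measured, with log2 ratios from −0.14 to 0.25. Their summed signal was 18424 in phosphate and 18744 in the control. Of the macrophage and osteoclast markers, 11 of 12 were measured, 9 of them were below 0, and none was 2-fold different. Their summed signal was 15693 in phosphate and 17054 in the control, with a median log2 ratio of −0.54, Itgam at the floor on both arrays, and Aif1 and Mrc1 lowest at −0.80 and −0.79. Most of the sum came from Lyz2 (7745 in phosphate, 7895 in the control) and Ctsk (4376 in phosphate, 4097 in the control). Both were named after their values were seen. The sum thus says little of the dimmer markers. Of 5 measured adipocyte markers all were below 0 (summed signal 3407 in phosphate and 4189 in the control), with Pparg at 23.0 in phosphate and 76.0 in the control. Of 6 measured fibroblast and tendon markers 4 were below 0 (summed signal of the list 6368 in phosphate and 6973 in the control). The part of osteocytes, chondrocytes, macrophages, adipocytes and fibroblasts in the inhibitor ratios was not tested. Endothelial markers were nearly absent, with 7 of 8 at the floor, Pecam1 and Cdh5 included, and a summed signal of 76.3 in phosphate and 125 in the control. The measured one, Egfl7, read 33.0 in phosphate and 60.4 in the control (−0.87). Its other 3 measured probe sets went the opposite way, at 0.14 to 0.70. Of 6 muscle markers, 3 were at the floor, among them Myod1 and Myog. The summed signal of the muscle list was 113 in phosphate and 108 in the control. The 3 measured ones summed to 73.3 in phosphate and 93.9 in the control. Of these, Des had a log2 ratio of 0.26 and Ckm a bound of 0.20. Acta1, the muscle actin gene, was past 2-fold, at 21.5 in phosphate, next to the floor, and 55.9 in the control (−1.37).

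**Figure D4:**
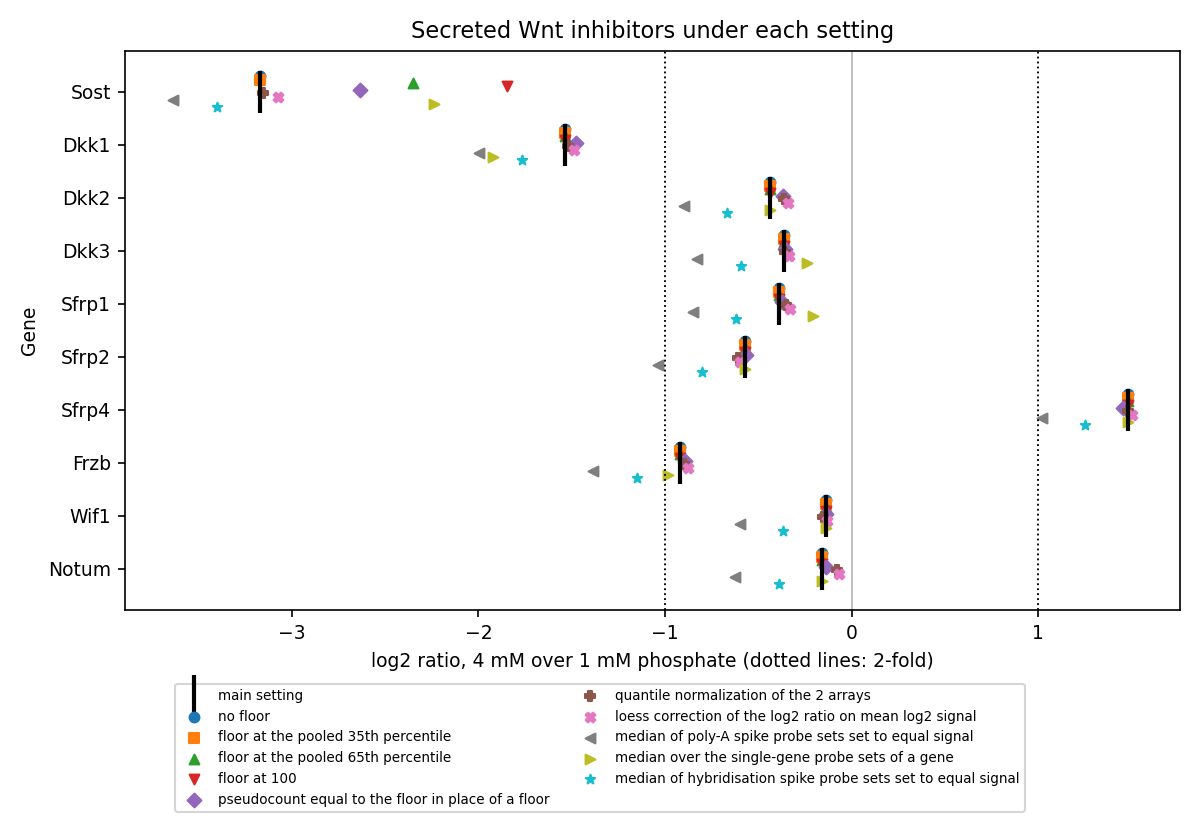
Log2 ratio of 4 mM over 1 mM phosphate (horizontal) of each inhibitor gene (rows) with the main processing (black bar) and 10 other settings (coloured symbols), 1 array per condition. Sost, Dkk1 and Sfrp4 lie outside the dotted 2-fold lines in every setting shown, and Sost ranges from −3.63 to −1.85.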

How the data were processed

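Total RNA (100 ng per culture) was hybridised to Affymetrix mouse arrays, 1 per condition. The authors deposited 1 linear intensity for each probe set of each array, computed with MAS5 in GCOS 1.4 per the submitters' processing notes; groups came from the sample labels. The trimmed mean (without the lowest and highest 2%) was 200.0 on both arrays, as calculated here. Depth has no counterpart on arrays, and their number limits the precision.

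Of 45037 mouse probe sets, the annotation named 1 gene for 34945, several for 932 and no gene for 9160. Only the first kind was used to name genes, with Entrez identifiers of 34741 found in the RefSeq table of GRCm38.p6. The probe set brightest by mean log2 signal stood for its gene. Calls are ratios of at least 2-fold. The members and gene lists were chosen with earlier results of these data known. Every inhibitor gene was named; of other lists, the 2 highest, the 2 lowest and genes past 2-fold could be named, besides those marked as chosen after their values were seen. Other settings were floors at percentiles 35 and 65 of the pooled signals and at 100, no floor, a pseudocount, quantile and loess normalization, poly-A scaling, the median over probe sets and, added after seeing the data, scaling on hybridisation spikes. Ratios were computed in Python 3.11.15 with pandas 2.3.3. The calling was tested on simulated data, with large changes put only into genes above 400 in the control. Recovery of smaller changes, or of changes in dimmer genes such as Sost, was thus not tested. Detection calls and protein sequences were not used here.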

Additional observations from a re-analysis of the deposited data

How the results depend on the processing

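No paired analysis was possible because each group has 1 array. Sost and Dkk1 were at least 2-fold lower and Sfrp4 at least 2-fold higher under all 10 alternatives, and the 9 genes below 0 were below 0 in each. Scaling on either kind of spike lowers every ratio, so those below 0 had to stay there. With the poly-A spikes set to equal signal, 4 inhibitor genes were at least 2-fold lower (Sost, Dkk1, Sfrp2 and Frzb), their median log2 ratio was −0.88 against −0.52 for all measured genes, and of 69 other Wnt genes 14 were at least 2-fold lower and 1 higher. That scaling put 14.1% of all measured genes at least 2-fold lower and 1.05% higher. With the hybridisation spikes as reference, added after seeing the data, 3 inhibitor genes were lower (Sost, Dkk1 and Frzb), their median was −0.64 against −0.29 for all measured genes, 8 of 69 other Wnt genes were at least 2-fold lower and 2 higher, and of all measured genes 6.58% were lower and 1.41% higher. Without a floor, 7 of 91 other Wnt genes were at least 2-fold lower and 8 higher, and with the floor at 100 none of 54 was lower, since fewer dim genes reach 2-fold there. Without a floor 10.1% of all genes were 2-fold lower and 11.7% higher. Of 100 values of single inhibitor genes, 78 moved by less than the technical SD and 22 by more. Many of the 78 could not move, so that count is no measure of stability. Every inhibitor gene except Sost was above 100 on both arrays, which no change of floor can alter. The 5 genes with 1 probe set had the same value as their median. Of those 22, 10 came from the poly-A scaling and 6 from that on hybridisation spikes. The others were Sost with a floor at percentile 65 of the pooled signals (−2.35), the floor at 100 (−1.85), a pseudocount (−2.63) and the median of probe sets (−2.24), and Dkk1 (−1.92) and Sfrp1 (−0.21) with the median of probe sets. Dim signals limit Sost most, whose phosphate value of 39.9 is close to the floor of 21.5.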

Other observations

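The genes with the ratio nearest to that of Sost, over 2 arrays and by absolute difference in log2 ratio, were the alcohol dehydrogenase gene Adh1 (−2.90), the caveolar gene Cavin2 (−2.35), Rassf4 (−2.27), Fbxo2 (−2.23) and the actin-binding gene Nexn (−2.21). None of the 10849 genes compared lay within 0.1 of Sost, so even the nearest were further off than that. Within 0.1 of Dkk1 lay 27 genes, and 27 lay within 0.1 of Sfrp4. A like ratio on 2 arrays thus sets no gene apart as related to them. Nearest to Dkk1 were Lyplal1 and Bcl11b, both at −1.53, Gsg1 at −1.53, and Haghl and Mycn, both at −1.52. Nearest to Sfrp4 were Gpr146 (1.49), the transglutaminase gene Tgm2 (1.49), Cystm1 (1.47), the hyaluronan receptor gene Cd44 (1.49) and the acute-phase gene Saa3 (1.47).

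Protein-coding genes next to the inhibitor genes, 2 on each side in the RefSeq gene table, were read to see whether their surroundings differed too. They were chosen by position and not by value. Of 40 such neighbours 24 were measured, with a median log2 ratio of −0.09, and 23 differed by less than 2-fold. Among all 12241 measured genes, 11604 differed by less than 2-fold and the median was −0.06. The count for the neighbours was thus near that of genes in general and shows nothing particular about their surroundings. Beside Sost, the phosphatase gene Dusp3 read 439 in phosphate and 373 in the control (0.24), and Meox1 was close to the floor. Beside Dkk1, the kinase gene Prkg1 read 282 in phosphate and 383 in the control (−0.44) and Cstf2t had a ratio of −0.19. Beside Sfrp4, Epdr1 and Stard3nl had ratios of 0.25 and 0.37. The exception was Tcim, near Sfrp1, at 174 in phosphate and 48.5 in the control (1.84).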
